A study of Zea mays with 6 samples.

Results

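The comparison described here set well-watered leaf against well-watered root of maize, the organ that fixes carbon against the organ that takes up water and minerals. It used 2 of the 6 RNA-seq samples of the series, chosen by their labels: the control leaf sample and the control root sample. The study sequenced leaf, stem and root of well-watered and drought-stressed plants of the hybrid variety ZD619 to look for kinases of the MAPKKK family that respond to drought. The labels give all plants as wild type and as at the 2 to 3 leaf stage. The study, however, reports thinning its pots at that stage and pictures the ZD619 plants at a later leaf stage. RNA of each tissue was pooled from several plants, the leaf sample was taken from the top leaves, and each tissue and treatment had 1 library. Drought leaf and drought root, from plants left without water until the soil had dried, served as a further pair. With 1 library on each side there was no spread between replicates, so no difference was tested and differences are described by their size.

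Maize is a C4 plant. In its leaf, mesophyll cells capture CO2 as a C4 acid by way of phosphoenolpyruvate carboxylase, and bundle sheath cells release the CO2 again beside Rubisco. The root has no light reactions. It imports sucrose, conducts water through aquaporins, takes up nitrate, phosphate and iron, and stiffens its vessels and endodermis with lignin.

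Values are FPKM, the fragments on a gene normalised for transcript length and for the number of mapped fragments, as the authors' programs gave them. The leaf and root tables were made separately, so both columns were first scaled to 1 common median over the 21971 genes above 1 FPKM in both, where the deposited medians were 11.4 FPKM in leaf and 9.92 FPKM in root. All levels below are scaled FPKM. A difference is the log2 of leaf + 1 over root + 1, so it is positive where leaf was higher, and it understates the change of genes near 0. FPKM do not hold the read counts behind them, so no counting error is given. Over the 6 libraries the deposited FPKM summed to between 544251 and 908668, and between 25140 and 26416 genes were above 1 FPKM.

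The tissue labels were checked against markers. The 3 mesophyll markers with a name in the reference, pep1, pdk1 and mdh6, summed to 12405 FPKM in leaf and 15.2 FPKM in root. The 3 bundle sheath markers, ssu1, rca1 and me3, summed to 3541 FPKM in leaf and 10.4 FPKM in root. The 3 root markers found, rth3, rtcs and zrp4, summed to 3.09 FPKM in leaf and 26 FPKM in root. The meristem gene kn1 was listed at 0 in both tissues. In bulk tissue, fewer cells of a type and less RNA per cell cannot be told apart.

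In the dehydrin and LEA group the root libraries ran against their treatment labels, while other stress genes, given below, went either way. All 5 named dehydrin and LEA genes, a class known to accumulate on dehydration and in maturing seed, were lower in drought root than in well-watered root. The clearest case was rab17 (GRMZM2G079440), a dehydrin gene induced by abscisic acid. With each pair scaled on its own, it had 2.97 FPKM in drought root, against 727 FPKM in well-watered root, and 188 FPKM in drought leaf, against 2.29 FPKM in well-watered leaf. The labels are used here as given, and the results that rest on stress genes are also given with the drought root library in place of the well-watered one. The cause of the pattern was not tested.

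Leaf and root differed widely. Of 29811 genes above 1 scaled FPKM in at least 1 of the tissues, 1581 (5.3%) were at least 8-fold higher in leaf and 931 (3.12%) were at least 8-fold higher in root, while 17432 (58.5%) lay within 2-fold. The median difference over all genes was -0.10 on the log2 scale. With the pseudocount of 1 used here the leaf side reached further: 573 genes were at least 32-fold higher in leaf and 170 in root. This excess in leaf depended on the pseudocount, since one of 0.1 gave 2898 leaf-high and 2903 root-high genes at 8-fold. With the pseudocount of 1, the genes past 8-fold also carried more of the leaf library. Those higher in leaf made up 39.3% of all leaf FPKM, and those higher in root made up 15.5% of all root FPKM. Their median level was 65.6 FPKM in leaf for the leaf-high genes and 27.4 FPKM in root for the root-high genes. Few genes turned on the exact limit, with 81 leaf-high genes inside it by less than 0.1 on the log2 scale and 84 outside it by as little, and 85 inside and 82 outside among root-high genes. As a yardstick from libraries of 1 tissue, drought leaf was at least 8-fold higher than well-watered leaf for 0.857% of genes and at least 8-fold lower for 0.561%, and drought root was higher than well-watered root for 0.875% and lower for 0.993%. Names were known for 7.18% of the genes compared, for 11.6% of the leaf-high genes and for 12.9% of the root-high genes, so the groups below cover a minority. Of the lists, 9 were added after values had been seen. They are those of dehydrin and LEA, heat shock factor, chitinase and PR, TIFY, ERF, PPR and EMB, ZCN and phytase genes, and the list that starts with catalase. Their counts describe genes partly known to differ and are no independent support.

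**Figure D1:**
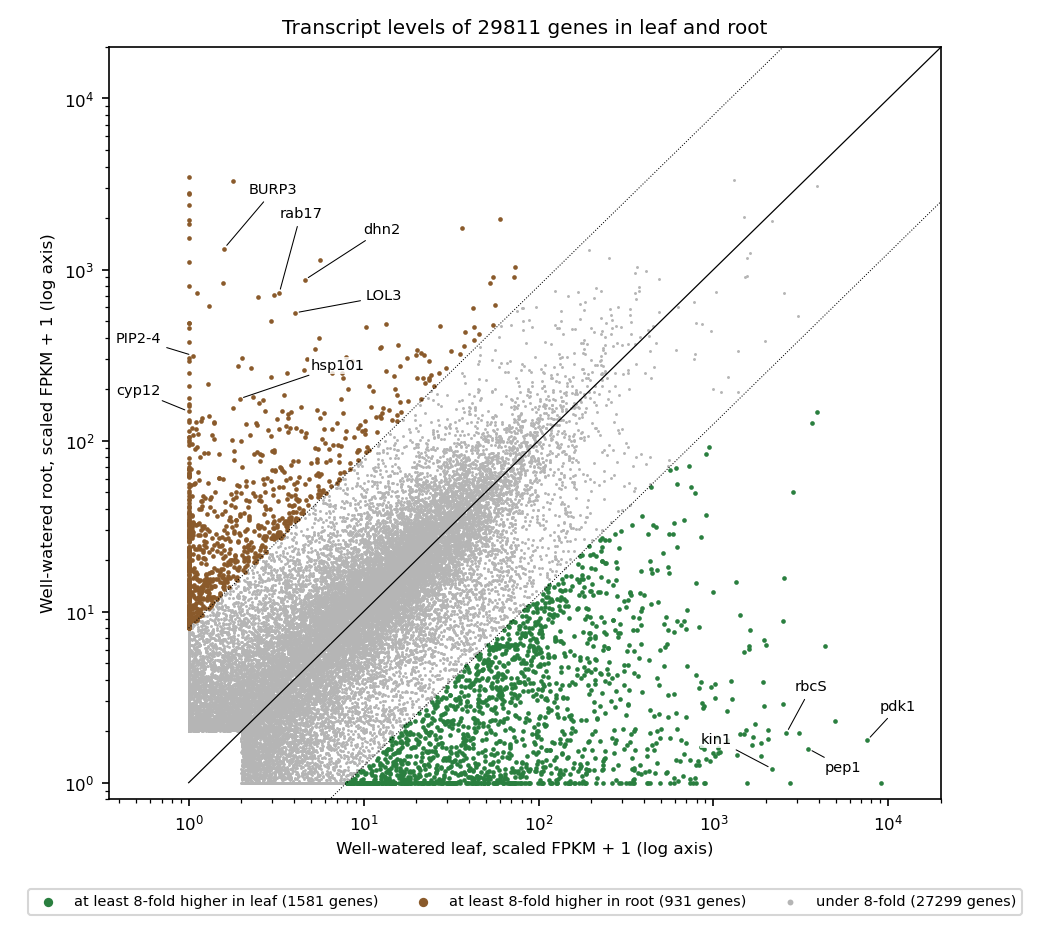
Each of 29811 genes is plotted by its level in well-watered leaf (x axis) and in well-watered root (y axis), both as scaled FPKM + 1 on log axes. The solid line marks equal levels and the dotted lines 8-fold; the 1581 leaf-high genes (green) extend to higher levels than the 931 root-high genes (brown), with pdk1 at 7578 FPKM in leaf.

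Genes of the light reactions were high in leaf and close to 0 in root. Of 14 genes in the photosystem and light harvesting list, 13 were at least 8-fold higher in leaf and 0 in root, with a median difference of 8.22 against -0.10 over all genes. Their levels summed to 12041 FPKM in leaf and 21.6 FPKM in root, and no member was above 5.40 FPKM in root. The antenna gene cp29, also named psb29 (GRMZM2G033885), had 1487 FPKM in leaf and 0.935 FPKM in root. Of the photosystem I subunit genes, psaN (GRMZM2G080107) had 1531 FPKM in leaf and 1.03 FPKM in root, and psa6 (GRMZM2G012397) had 1908 FPKM in leaf and 2.9 FPKM in root. The chlorophyll-binding proteins Cab-m7 (1253 FPKM in leaf and 2.93 FPKM in root) and lhcb5 (885 FPKM in leaf and 1.80 FPKM in root) showed the same gap. The lone member within 8-fold was PSBQ, at 1.70 FPKM in leaf and listed at 0 in root. Outside the list, ris2 (GRMZM2G162748), named for the Rieske iron-sulfur protein of the cytochrome complex, had 1411 FPKM in leaf and 0.917 FPKM in root.

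The C4 cycle list split between genes of the leaf pathway and their relatives. Of 15 genes, 6 were at least 8-fold higher in leaf and 1 in root, and the median difference was 0.90. pdk1 (GRMZM2G306345), which encodes pyruvate, phosphate dikinase and regenerates the CO2 acceptor, had 7578 FPKM in leaf and 0.772 FPKM in root, a difference of 12.06. pep1 (GRMZM2G083841), the C4 form of phosphoenolpyruvate carboxylase, had 3484 FPKM in leaf and 0.579 FPKM in root. The NADP-malic enzyme gene me3 (GRMZM2G085019), which releases CO2 in the bundle sheath, had 1585 FPKM in leaf and 5.03 FPKM in root. The NADP-malate dehydrogenase gene mdh6 had 1343 FPKM in leaf and 13.9 FPKM in root, and pdrp1, the regulator of the dikinase, had 546 FPKM in leaf and 6.78 FPKM in root. PPDK2 (GRMZM2G097457), a further dikinase gene, had 75.1 FPKM in leaf and 0.145 FPKM in root.

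The other enzymes of these families sat elsewhere. me4 (GRMZM2G118770), a second malic enzyme gene, was the member past 8-fold in root, with 0.752 FPKM in leaf and 32.9 FPKM in root, while me2 had 60.0 FPKM in leaf and 284 FPKM in root. The carboxylase gene pep7 had 11.1 FPKM in leaf and 40.9 FPKM in root, and pep4 was nearly level at 40.6 FPKM in leaf and 44.3 FPKM in root. The malic enzyme family therefore held 1 gene past 8-fold in each direction. me4 did not keep this side in the drought pair, where it had 2.36 FPKM in leaf and 0.211 FPKM in root.

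Rubisco and Calvin cycle genes followed the light reactions. All 7 genes compared were at least 8-fold higher in leaf, with a median difference of 8.21 and no member above 4.80 FPKM in root. Of the genes for the Rubisco small subunit, rbcS (GRMZM2G113033) had 2609 FPKM in leaf and 0.950 FPKM in root and ssu1 (GRMZM2G098520) had 1500 FPKM in leaf and 4.80 FPKM in root. These are near copies, and how the authors' programs shared reads between such genes is not given in the sources used here. The plastid glyceraldehyde-3-phosphate dehydrogenase genes gpa1 (2057 FPKM in leaf and 1.04 FPKM in root) and gpb1 (675 FPKM in leaf and 0.465 FPKM in root) were among the largest differences of the list. Rubisco activase, rca1, had 455 FPKM in leaf and 0.545 FPKM in root.

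Ferredoxins, small iron-sulfur proteins that pass electrons, exist in leaf and root forms in maize, and both forms were visible. FDX1 (GRMZM2G122337) had 846 FPKM in leaf and 0.620 FPKM in root, and fdx2 (GRMZM2G048313) had 990 FPKM in leaf and 0.483 FPKM in root. fdx5 had 317 FPKM in leaf and was listed at 0 in root. The opposite order was seen for fdx3 (GRMZM2G053458), with 45.6 FPKM in leaf and 351 FPKM in root, a difference of -2.92 that stopped short of 8-fold. The reductases split the same way: L-FNRII had 675 FPKM in leaf and 7.87 FPKM in root, whereas fnr1 had 6.87 FPKM in leaf and 33.1 FPKM in root. Over the 9 genes, 6 were past 8-fold in leaf and 0 in root.

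Genes that build the plastid apparatus were also higher in leaf. Of 4 chlorophyll synthesis genes 3 were past 8-fold, among them por (GRMZM2G073351), protochlorophyllide reductase, at 271 FPKM in leaf and 0.708 FPKM in root, and oy1, a magnesium chelatase subunit, at 144 FPKM in leaf and 0.402 FPKM in root. Of 15 pentatricopeptide repeat (PPR) and EMB genes, many of them needed for plastid gene expression, 8 were past 8-fold in leaf and 0 in root, with a median of 3.06. EMB2756 (GRMZM2G043212) had 280 FPKM in leaf and 3.24 FPKM in root, Emb12 had 122 FPKM in leaf and 4.53 FPKM in root, and ppr2 had 78.6 FPKM in leaf and 3.44 FPKM in root. A further gene under the name EMB2756, GRMZM2G043464, was level at 7.18 FPKM in leaf and 7.22 FPKM in root. Photorespiration and peroxisomes were represented by the catalase gene cat2 (GRMZM2G090568), with 250 FPKM in leaf and 2.81 FPKM in root. It stood alone in its list, where 1 of 34 catalase, superoxide dismutase, ascorbate peroxidase and glutathione transferase genes was past 8-fold in leaf and 3 were in root. The root side was led by the transferase genes gst42 (1.91 FPKM in leaf and 38.9 FPKM in root) and gst2 (6.23 FPKM in leaf and 73.7 FPKM in root).

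Sugar genes fell on both sides. Of 21 sucrose and starch genes, 5 were past 8-fold in leaf and 1 in root, with a median of 0.77. sps1 (GRMZM5G875238), sucrose phosphate synthase, which makes sucrose for export, had 211 FPKM in leaf and 0.992 FPKM in root. agpsl1 (GRMZM2G163437), for ADP-glucose pyrophosphorylase at the entry to starch, had 223 FPKM in leaf and 1.79 FPKM in root. The vacuolar invertase gene ivr2 had 57.8 FPKM in leaf and 3.29 FPKM in root, and the sucrose transporter gene sut1 had 434 FPKM in leaf and 79.1 FPKM in root, a difference of 2.44. On the root side stood sucrose synthase, which splits imported sucrose: sus2 (GRMZM2G318780) had 12.4 FPKM in leaf and 255 FPKM in root, and sus1 had 43.9 FPKM in leaf and 279 FPKM in root. In the drought pair sus2 had 57.3 FPKM in leaf and 25.4 FPKM in root, so its order was reversed there.

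**Figure D2:**
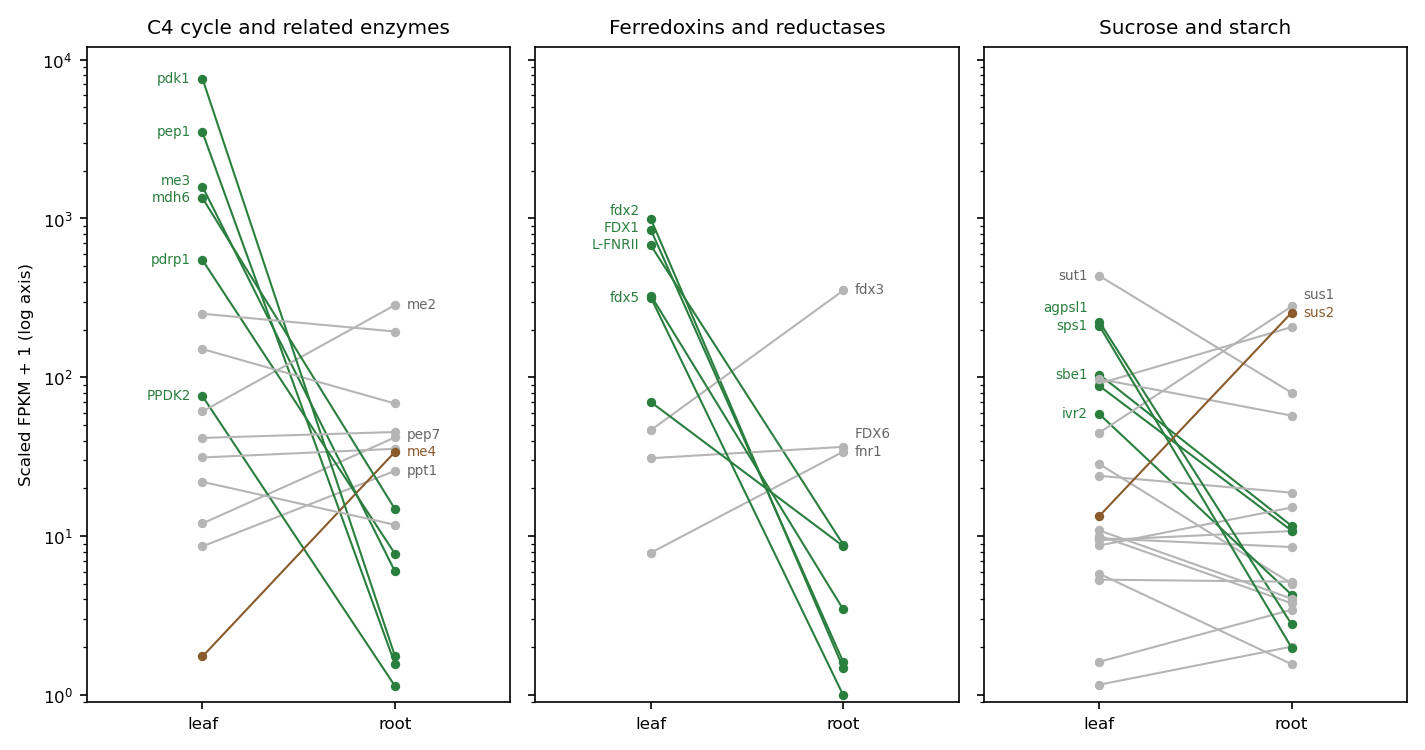
Levels of every compared member of 3 lists in well-watered leaf (left of each panel) and well-watered root (right), as scaled FPKM + 1 on a log axis, with 1 line per gene. Green lines are at least 8-fold higher in leaf, brown lines at least 8-fold higher in root and grey lines under 8-fold; in each panel steep falls from leaf cross genes that rise towards root, such as me4, fdx3 and sus2.

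Aquaporins, the water channels of membranes, had more genes past 8-fold in root than in leaf. Of 24 genes, 11 were at least 8-fold higher in root and 2 in leaf, with a median of -2.10, or -0.99 over 27 genes with no filter on low values. The 11 were 8 PIPs, which sit in the plasma membrane, and 3 TIPs, which sit in the vacuole membrane. PIP2-4 (GRMZM2G154628) had 0.0567 FPKM in leaf and 313 FPKM in root, and pip2-5 (GRMZM2G178693) had 0.137 FPKM in leaf and 64.7 FPKM in root. The most abundant was PIP1-1, with 55.7 FPKM in leaf and 619 FPKM in root. Against this direction, TIP4-1 (GRMZM2G103945) had 319 FPKM in leaf and 0.657 FPKM in root, and NIP2-3 (GRMZM2G081239), also named Lsi6 after a silicon channel of rice, had 30.2 FPKM in leaf and 0.906 FPKM in root. The TIP group therefore held paralogues past 8-fold in both directions, for example TIP4-1 in leaf and TIP1-2 (0.500 FPKM in leaf and 15.5 FPKM in root) in root.

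Few mineral transport genes were past 8-fold. Over all genes compared, 5.3% were past it in leaf and 3.12% in root, so these small counts say little about the list. Of 30 genes for iron, phosphate, sulfate and potassium transport, 0 were past 8-fold in leaf and 2 in root, with a median of -0.90. Both were phosphate transporter genes: pht2 (GRMZM2G154090) had 0.573 FPKM in leaf and 58.8 FPKM in root, and pht6 was listed at 0 in leaf and had 27.6 FPKM in root. HAK27, named as a potassium transporter, lay just under the limit on the leaf side, with 8.76 FPKM in leaf and 0.228 FPKM in root.

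Nitrogen genes fell on both sides. Of 16 genes, 3 were past 8-fold in leaf and 2 in root. NAR2.1 (GRMZM2G179294), a partner protein of nitrate transporters, had 0.158 FPKM in leaf and 22.3 FPKM in root. Nitrate reductase, NR1 (GRMZM2G568636), had 62.7 FPKM in leaf and 2.00 FPKM in root, while nitrite reductase, NIR, was close at 88.4 FPKM in leaf and 75 FPKM in root. Of the glutamine synthetases, GLN6 (GRMZM2G050514) had 196 FPKM in leaf and 8.24 FPKM in root, gln4 had 215 FPKM in leaf and 147 FPKM in root, and gln2 had 12.6 FPKM in leaf and 40.0 FPKM in root. The asparagine synthetase gene asn3 (GRMZM2G053669) had 0.135 FPKM in leaf and 26.9 FPKM in root, whereas asn1 had 43.1 FPKM in leaf and 34.7 FPKM in root.

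Lignin genes were root-high as a group. Of 9 genes, 5 were at least 8-fold higher in root and 1 in leaf, with a median of -3.03. Phenylalanine ammonia-lyase, the entry enzyme, had 71.7 FPKM in leaf and 909 FPKM in root for PAL1 (GRMZM2G074604). CAD2, the alcohol dehydrogenase gene of the brown midrib mutant bm1 (GRMZM5G844562), had 14.4 FPKM in leaf and 184 FPKM in root. The exception was cad1 (GRMZM2G046070), with 28.2 FPKM in leaf and 1.55 FPKM in root, so the dehydrogenases held 1 gene past 8-fold on each side. The cellulose synthases were closer, with a median of -0.03, and 0 of 9 passed 8-fold in either direction. The largest differences towards root were those of CesA12 (3.83 FPKM in leaf and 24.8 FPKM in root) and cesa8 (3.27 FPKM in leaf and 20.6 FPKM in root), while cesa6 had 51.9 FPKM in both. No expansin gene passed 8-fold, and all 6 compared were below 4 FPKM in both tissues. Over all genes compared, 5.3% passed it in leaf and 3.12% in root. That no cellulose synthase or expansin gene passed it therefore says little about these short lists.

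**Figure D3:**
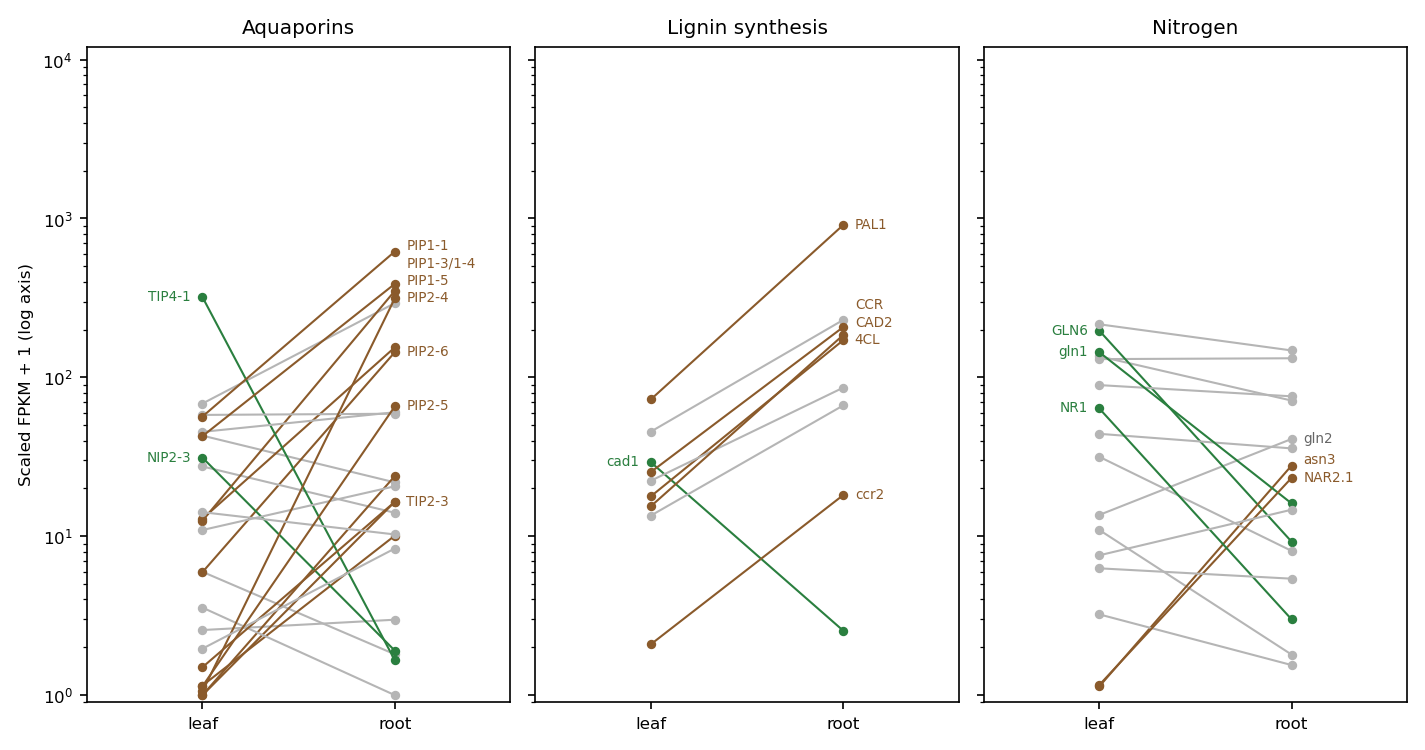
Levels of every compared member of the aquaporin, lignin and nitrogen lists in well-watered leaf (left of each panel) and well-watered root (right), as scaled FPKM + 1 on a log axis, with 1 line per gene. Brown lines, at least 8-fold higher in root, make up 11 of 24 aquaporins and 5 of 9 lignin genes, and green lines mark TIP4-1, NIP2-3, cad1 and 3 nitrogen genes at least 8-fold higher in leaf.

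Defence genes were mostly higher in root. All 9 chitinase and pathogenesis-related (PR) genes had the higher level in root and 5 were past 8-fold. chiA (GRMZM2G051943) had 0.0560 FPKM in leaf and 106 FPKM in root, PR-1 (GRMZM2G465226) had 4.27 FPKM in leaf and 342 FPKM in root, and the inhibitor gene wip1 had 0.292 FPKM in leaf and 55.2 FPKM in root. All 5 peroxidase genes were higher in root too, PER66 and PER2 being listed at 0 in leaf with 21.8 and 16.2 FPKM in root. Benzoxazinoids, the defence compounds of young maize, are made by the bx genes. Their list held 7 bx genes and the related Igl and igl1, and 0 of these 9 passed 8-fold. With 5.3% of all genes compared past it in leaf and 3.12% in root, that count says little about the list. The first steps leaned to root, with 12.8 FPKM in leaf and 55.5 FPKM in root for bx1, 19.6 FPKM in leaf and 94.6 FPKM in root for bx2, and 44.7 FPKM in leaf and 291 FPKM in root for BX3. The later gene bx8 was level, at 41.1 FPKM in leaf and 46.4 FPKM in root. Igl, the relative of bx1 that makes free indole, had the opposite order, with 12.5 FPKM in leaf and 1.69 FPKM in root. In the drought pair the order was reversed for bx1 (16.8 FPKM in leaf and 4.27 FPKM in root), bx2 (13.9 and 5.80 FPKM) and Igl (6.53 and 32.3 FPKM). BX3 kept its order there, with 36.9 FPKM in leaf and 86.3 FPKM in root.

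Genes of lipid-derived signals fell on both sides. Of 22 lipoxygenase, jasmonate and terpene genes, 4 were past 8-fold in leaf and 1 in root, while the median was -0.51 and 14 of the 22 were higher in root. lox10 (GRMZM2G015419), a lipoxygenase known for green leaf volatiles, was among the most abundant transcripts of the leaf, with 3880 FPKM in leaf and 145 FPKM in root. The allene oxide synthase gene aos2 had 180 FPKM in leaf and 11.4 FPKM in root, and opr6 had 31.1 FPKM in leaf and 1.10 FPKM in root. aoc1, for the cyclase that follows allene oxide synthase, was the member past 8-fold in root, with 4.74 FPKM in leaf and 62.5 FPKM in root. Of 21 TIFY genes, repressors in jasmonate signalling among them, 4 were past 8-fold in root, led by TIFY28 (2.50 FPKM in leaf and 64.2 FPKM in root), and 1 in leaf, TIFY25 (238 FPKM in leaf and 18.2 FPKM in root).

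Chaperone genes were far higher in the well-watered root library. Of 15 heat shock genes, 9 were at least 8-fold higher in root and 0 in leaf, with a median of -3.57. hsp101 (GRMZM2G360681), a disaggregase, had 0.954 FPKM in leaf and 175 FPKM in root, hsp18c (GRMZM2G034157), a small heat shock protein, had 0.400 FPKM in leaf and 128 FPKM in root, and hsp82 had 0.288 FPKM in leaf and 83.5 FPKM in root. Both HSP60-1 genes, chaperonins, were level, one with 39.5 FPKM in leaf and 37.2 FPKM in root. Of 10 heat shock factor genes 3 were past 8-fold in root: Hsf26 had 0.0334 FPKM in leaf and 53.8 FPKM in root, Hsf03 had 0.0440 FPKM in leaf and 35.3 FPKM in root, and Hsf05 (GRMZM2G133023) had 2.13 FPKM in leaf and 66.7 FPKM in root. A further gene under the name Hsf05, GRMZM2G132971, was level at 42.0 FPKM in leaf and 45.4 FPKM in root.

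All 5 dehydrin and LEA genes were past 8-fold in root, in a list added after values had been seen. rab17 had 2.29 FPKM in leaf and 727 FPKM in root, and dhn2 (GRMZM2G373522) had 3.61 FPKM in leaf and 870 FPKM in root. mlg3 and EMB5 were listed at 0 in leaf, with 69.1 and 14.2 FPKM in root. Of 3 genes for phytases, which free phosphate from seed stores, 2 were past 8-fold in root. phytase1 was listed at 0 in leaf and had 60.0 FPKM in root, and phytase2 had 0.1 FPKM in leaf and 31 FPKM in root. PAPhy was under the limit, with 1.63 FPKM in leaf and 8.81 FPKM in root.

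These stress groups depended on the root library. With drought root in place of well-watered root, the members at least 8-fold higher in root fell to 1 of 15 heat shock genes, 0 of 10 heat shock factors, 1 of 5 dehydrin and LEA genes and 1 of 3 phytases. That phytase was PAPhy, not phytase1 or phytase2. rab17 then differed by -0.16, hsp18c by -0.92 and hsp101 by -2.42. The chitinase and PR genes did not share this, since all 9 were past 8-fold in root with the drought root library. Among the other lists named above, peroxidases went to 5 of 5 past 8-fold in root and TIFY genes to 9 of 21. Aquaporins went to 10 of 24 and lignin genes to 3 of 9, and nitrogen genes past 8-fold in leaf to 1 of 16. The photosystem, C4, Rubisco, chlorophyll and ferredoxin lists had the same counts in leaf with either root library, at 13, 6, 7, 3 and 6 genes. What sets the stress groups high in well-watered root was not tested.

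**Figure D4:**
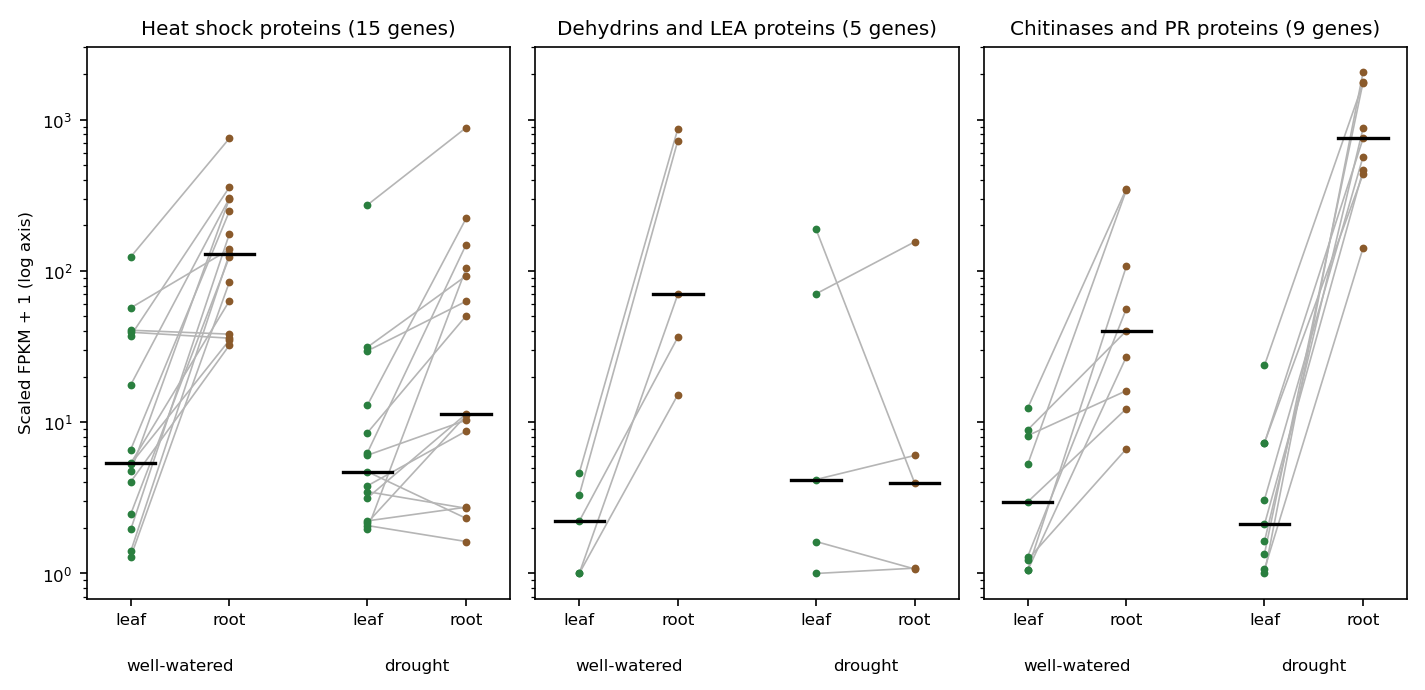
Levels of the 15 heat shock, 5 dehydrin and LEA, and 9 chitinase and PR genes in the well-watered pair and in the drought pair, each pair scaled on its own, as scaled FPKM + 1 on a log axis. Points are genes, grey lines join a gene in leaf (left) and root (right) and black bars are medians; the dehydrin median is high only in well-watered root, while the chitinase median is high in root of both pairs.

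Regulators of organ identity fell on both sides, also within families. The KNOX genes lg3, lg4 and lg4b, which keep cells undetermined, were listed at 0 in leaf and had 20.8, 12.7 and 9.61 FPKM in root. The KNOX genes knox6 (34.9 FPKM in leaf and 22.8 FPKM in root) and knox7 (18.8 FPKM in leaf and 15.3 FPKM in root) lay within 2-fold. The YABBY genes of leaf polarity stayed just under the limit, with 8.22 FPKM in leaf and 0.181 FPKM in root for YAB5 and 7.75 FPKM in leaf and 0.323 FPKM in root for YAB11. The root hair gene rth3 had 1.17 FPKM in leaf and 14 FPKM in root, and rtcs, needed for crown roots, was listed at 0 in leaf and had 2.14 FPKM in root. The scarecrow gene SCR, which patterns the root endodermis, had the opposite order, with 16 FPKM in leaf and 1.91 FPKM in root. MADS15 (71.8 FPKM in leaf and 0.154 FPKM in root) and MADS67 (94.3 FPKM in leaf and 0.682 FPKM in root) were the MADS genes past 8-fold in leaf, and MADS4 (0.286 FPKM in leaf and 12.5 FPKM in root) and a zmm2 gene, GRMZM2G492156 (0.357 FPKM in leaf and 10 FPKM in root), were those past it in root. With the drought root library in place of the well-watered one, 0 MADS genes were past 8-fold in root. In the drought pair MADS15 had 4.81 FPKM in leaf and 0.387 FPKM in root, which is under 8-fold. MADS67 stayed past it there, with 148 FPKM in leaf and 0.587 FPKM in root. Of the ZCN genes, relatives of the flowering signal FT, ZCN7 had 11.3 FPKM in leaf and was listed at 0 in root. In leaf of the drought pair ZCN7 had 0.202 FPKM. ZCN6 (GRMZM2G132880) had 0.0831 FPKM in leaf and 88.3 FPKM in root, but 0.815 FPKM in leaf and 0.600 FPKM in root of the drought pair.

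The ERF and bHLH families had more genes past 8-fold in root than in leaf. Over all genes compared, 3.12% were past 8-fold in root and 5.3% in leaf, so the small NAC, MYB and WRKY counts below say little about those families. Of 25 ERF genes, 7 were past 8-fold in root, led by EREB92 (1.97 FPKM in leaf and 105 FPKM in root), and 1 in leaf, EREB60 (24.6 FPKM in leaf and 0.541 FPKM in root). Of 35 bHLH genes, 4 were past it in root and 0 in leaf. They included bHLH35 (0.0400 FPKM in leaf and 19.2 FPKM in root) and the abundant bHLH116 (14.2 FPKM in leaf and 199 FPKM in root). NAC40 had 4.52 FPKM in leaf and 88.7 FPKM in root, alone among 20 NAC genes. MYB genes split, 3 of 41 past 8-fold in leaf and 2 in root, with MYB61 at 15.7 FPKM in leaf and listed at 0 in root, and MYB165 at 0.0512 FPKM in leaf and 30.5 FPKM in root. With the drought root library in place of the well-watered one, 12 of 25 ERF, 7 of 35 bHLH, 3 of 20 NAC and 4 of 41 MYB genes were past 8-fold in root. WRKY53 (55.6 FPKM in leaf and 1.34 FPKM in root) was the lone WRKY gene of 18 past the limit. No gene of the auxin list (26 genes) or the gibberellin list (5 genes) passed 8-fold. The cytokinin list had 1 cytokinin oxidase on each side, cko2 with 19.8 FPKM in leaf and 1.56 FPKM in root, and CKX10 with 0.599 FPKM in leaf and 13.7 FPKM in root.

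The MAPKKKs are the kinases the study was built on. Over all genes compared, 58.5% lay within 2-fold, 5.3% were past 8-fold in leaf and 3.12% in root. The small counts of MAPKKKs past 8-fold below therefore say little about the family. Of 71 genes, 68 had an identifier in the tables and 58 were above 1 FPKM in at least 1 tissue. Their median difference was -0.03, 40 of 58 lay within 2-fold, 0 were at least 8-fold higher in leaf and 1 was at least 8-fold higher in root. That gene was ZmMAPKKK56 (GRMZM2G063069) of the Raf subfamily, with 0.342 FPKM in leaf and 16 FPKM in root. In the same subfamily ZmMAPKKK67 had 4.35 FPKM in leaf and 0.0574 FPKM in root, ZmMAPKKK68 had 3.15 FPKM in leaf and was listed at 0 in root, and ZmMAPKKK73 had 7.34 FPKM in leaf and 41.0 FPKM in root. The median difference was -0.63 for the 20 MEKK members, -0.01 for the 32 Raf members and 0.11 for the 6 ZIK members. For MEKK it was -1.01 with a pseudocount of 0.1 and 0.08 over the 6 members above 10 FPKM. The largest difference of the MEKK members was that of ZmMAPKKK76, with 0.331 FPKM in leaf and 5.02 FPKM in root. Of the ZIK members it was that of ZmMAPKKK26, with 20.2 FPKM in leaf and 4.86 FPKM in root. With the drought root library in place of the well-watered one, 7 of the 20 MEKK members were at least 8-fold higher in root, against 0 with the well-watered one.

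Few genes of the ribosomal, histone and tubulin lists passed 8-fold in the well-watered pair. Over all genes compared, 5.3% passed it in leaf and 3.12% in root. The 33 ribosomal protein genes had a median of -0.04, and 2 of them were past 8-fold in leaf, a share near that over all genes. These were rpl29 (323 FPKM in leaf and 1.87 FPKM in root) and rpl19 (479 FPKM in leaf and 10.4 FPKM in root). None of 27 histone and cell cycle genes passed 8-fold, though their median was -0.77 and 21 of them were higher in root, among them the histone gene H4C13 (0.581 FPKM in leaf and 6.61 FPKM in root). None of 19 tubulin, actin and elongation factor genes passed it, with a median of -1.06 and the largest difference being that of tua4, an alpha tubulin gene, with 80.2 FPKM in leaf and 596 FPKM in root. With the drought root library instead, 8 of 27 histone and cell cycle genes and 5 of 19 tubulin, actin and elongation factor genes were past 8-fold in root, and the ribosomal median was -1.77. The clock gene gigantea, GI, had 324 FPKM in leaf and 257 FPKM in root.

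**Figure D5:**
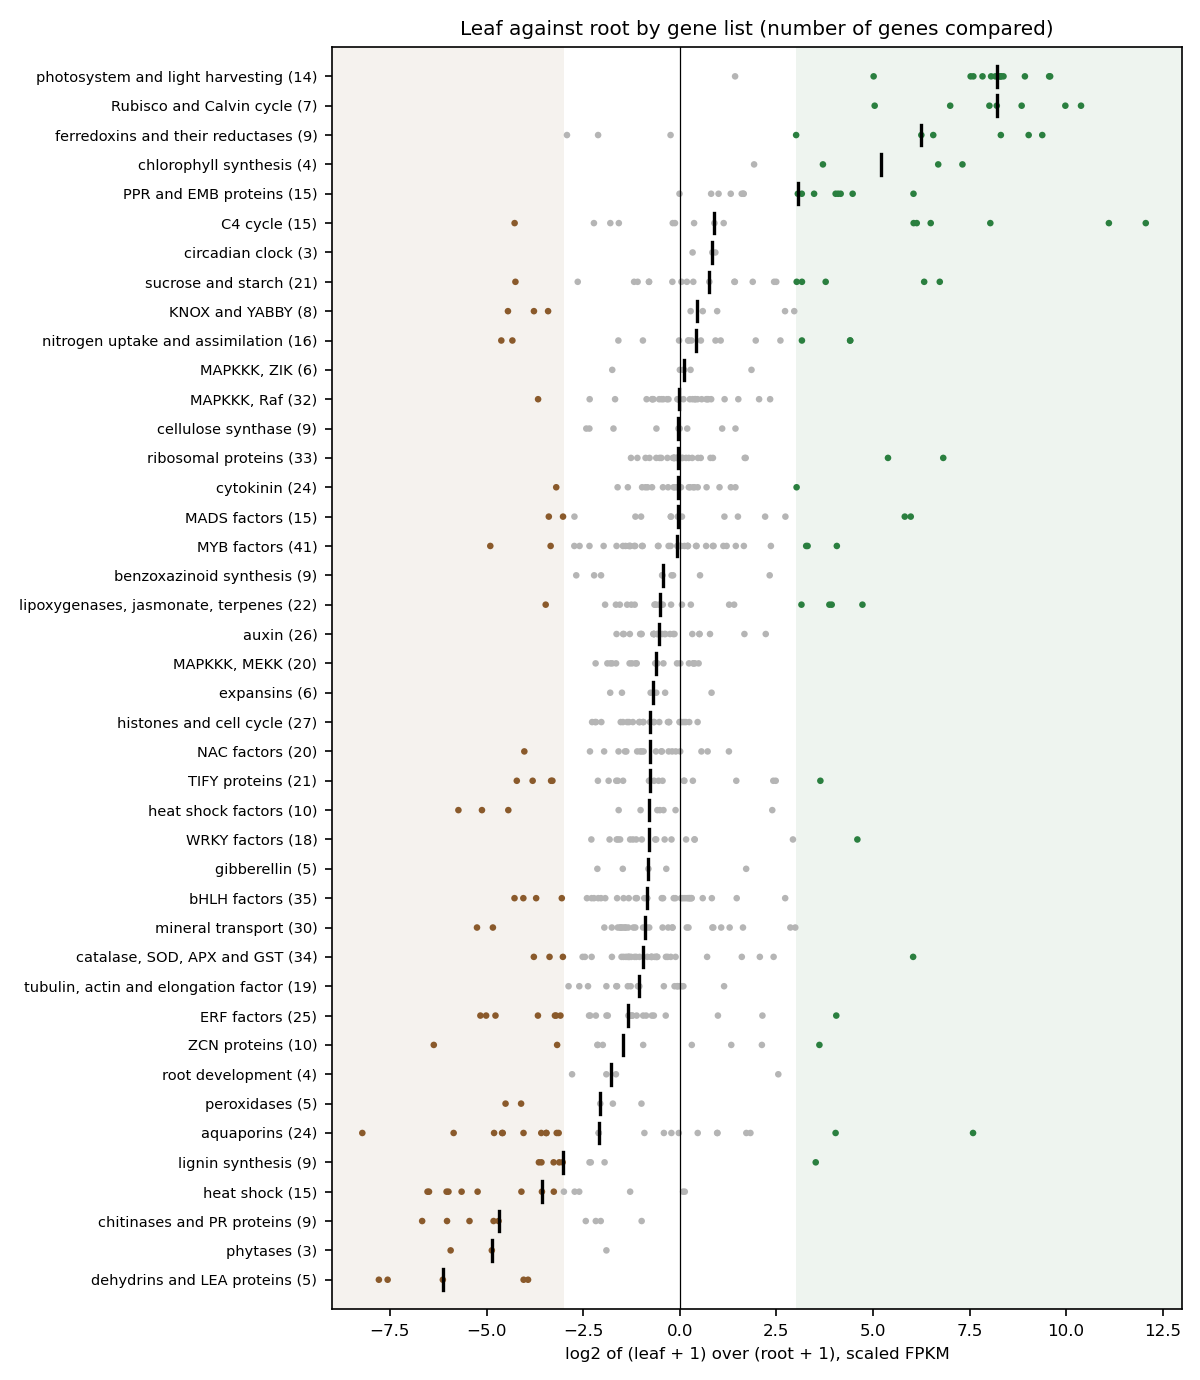
The difference between leaf and root, as log2 of leaf + 1 over root + 1, is plotted for every compared member (points) of each list with 3 or more compared genes; the number compared stands in brackets and black bars are medians. Green and brown points lie past 8-fold in leaf and in root. Photosynthesis lists sit at the right with medians of 8.22 and 8.21, and the dehydrin list at the left. The MYB and MADS medians sit close to the overall median of -0.10. The 9 lists added after values had been seen are included.

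Beyond the lists, BURP3 (GRMZM2G106980) was the named gene with the largest difference in root, at 0.594 FPKM in leaf and 1326 FPKM in root. kin1 (GRMZM2G158394) came after pdk1 and pep1 in leaf, at 2154 FPKM in leaf and 0.209 FPKM in root. cyp12 was listed at 0 in leaf and had 147 FPKM in root. The name LOL3 belongs to a pair of genes with opposite order: GRMZM2G120079 had 353 FPKM in leaf and 0.223 FPKM in root, and GRMZM2G125314 had 3.06 FPKM in leaf and 557 FPKM in root. This pair was picked after its values were seen. Among genes past 8-fold, the highest levels in leaf were those of GRMZM2G511229 (9092 FPKM in leaf and listed at 0 in root), pdk1 and GRMZM2G070167 (4917 FPKM in leaf and 1.28 FPKM in root). The highest in root were those of GRMZM2G506270 (listed at 0 in leaf and 3469 FPKM in root), GRMZM2G036048 (0.794 FPKM in leaf and 3301 FPKM in root) and GRMZM2G578282 (listed at 0 in leaf and 2786 FPKM in root). The reference gives these no name.

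The leaf side was seen again in the drought pair, which shares no library with the well-watered one, and the root side less so. There 4.9% of 30616 genes were at least 8-fold higher in leaf and 5.03% at least 8-fold higher in root. For leaf, 1084 genes were past 8-fold in both pairs, which is 68.6% of the well-watered and 72.2% of the drought genes. For root, 405 genes were past it in both, 43.5% of the well-watered and 26.3% of the drought genes. The sign was kept in drought by 95.8% of the 1581 leaf-high genes and by 82.3% of the 931 root-high genes. In well-watered stem, whose table has its own scale, 92.5% of the leaf-high genes and 62.3% of the root-high genes were above 1 FPKM. Light harvesting genes were among those high in stem, for example cab-m9, with 487 FPKM in leaf, 1.52 FPKM in root and 3517 deposited FPKM in stem.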

How the data were processed

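Leaf, stem and root of maize were measured by RNA-seq in 6 libraries, 1 per tissue and treatment. TopHat aligned the reads to the genome of the inbred B73, and the authors then ran Cufflinks and Cuffdiff; the versions and the genome release are not given in the sources used here. The authors deposited FPKM in 3 tables, 1 per tissue, each listing 109715 identifiers with a well-watered and a drought column and their own log2 ratio, which was not used. That each table was normalized on its own was taken from the separate tables. Groups came from the sample titles.

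The leaf and root columns were joined by identifier. Each column was scaled so that its median over genes above 1 FPKM in both equalled the geometric mean of both medians, and a pseudocount of 1 was added. Genes above 1 scaled FPKM in at least 1 library were compared, and an 8-fold difference (3 on the log2 scale) was the limit. With 1 library per group there was no test and no error, and the FPKM tables hold no read counts, so no interval is given. Reads of near-identical genes and of overlapping genes may have been split between them.

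Names came from RefSeq annotation of another assembly (Zm-B73-REFERENCE-NAM-5.0), which matched 18777 identifiers (17.1%) and named 2657; no position was used. Gene lists were name patterns: 31 lists, 9 more added after values had been seen, and the MAPKKKs the study lists. The 9 added lists are named in the Results. False matches were removed by hand. Members and lists were chosen with earlier results of these data known. Genes named were the 10 with a reference name and at least 10 scaled FPKM that were highest or lowest in difference, the 3 most abundant past 8-fold on each side, and in each list the 3 largest differences, members past 8-fold against the list's median, paralogue pairs and, in short lists, members a reader needs. Some further members were named after their values had been seen.

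Alternatives were a pseudocount of 0.1 or 10, no filter or a filter at 10 FPKM, no scaling, scaling to equal sums or upper quartiles, limits of 4-fold and 32-fold, the drought pair, and, chosen after seeing the data, the drought root library in place of the well-watered one. The steps were tested on simulated data. Python 3.11.15, numpy 2.4.6, pandas 2.3.3 and matplotlib 3.10.9 were used.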

Additional observations from a re-analysis of the deposited data

Results flagged for a closer look

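Leaf and root changed places between the well-watered and the drought pair for 20 genes, which were at least 8-fold higher in leaf in one pair and at least 8-fold higher in root in the other. With 1 library in each group the difference between the pairs was not tested. Of the 20, 16 were root-high in the well-watered pair and 4 were leaf-high, and 4 have a name.

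The named genes were all root-high in the well-watered pair and leaf-high in the drought pair. rab17, a dehydrin gene, had a log2 difference of -7.79 in the well-watered pair and 5.57 in the drought pair. The asparagine synthetase gene asn3 had differences of -4.62 and 5.53, with 190 FPKM in leaf and 3.11 FPKM in root of the drought pair. AGA1 had differences of -4.04 and 4.44, with 54.1 FPKM in leaf and 904 FPKM in root of the well-watered pair and 2274 FPKM in leaf and 104 FPKM in root of the drought pair. PP2C13, named as a protein phosphatase of the class that acts in abscisic acid signalling, had differences of -3.21 and 3.68. For all 4 genes, drought root was below well-watered root and drought leaf above well-watered leaf.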

How the results depend on the processing

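No paired analysis was possible because each group had 1 library. The counts of leaf-high and root-high genes were 1581 and 931. They were 2898 and 2903 with a pseudocount of 0.1, 564 and 151 with a pseudocount of 10, 2849 and 2384 at 4-fold, and 573 and 170 at 32-fold. The excess of leaf-high over root-high genes was thus absent with a pseudocount of 0.1. The root count was 1539 in the drought pair and 1624 with drought root in place of well-watered root, where 59.7% of the 931 root-high genes and 88.7% of the 1581 leaf-high genes were still past 8-fold. The filter on low values and the scaling moved both counts by less than 1.5 times; equal sums gave 1369 and 1167 and moved the median over all genes by -0.33, and no scaling moved it by 0.17. Of 332 recomputed list medians 52 moved by more than 1.5-fold and 280 by less. Of the 332, 16 changed sign, for 11 lists whose reported median was at most 0.90 in size; each setting chose its own genes by the filter, and over the same genes the C4 median was 0.41 with drought root. The KNOX and YABBY median was -1.75 over the 4 genes above 10 FPKM. Of 159 recomputed differences of the 20 named genes 156 stayed past 8-fold. With the drought root library hsp18c, rab17 and hsp101 did not. ZCN6 was below the filter of 1 FPKM in both tissues there, so its lost difference is not among the 159. FPKM hold no read counts and the spread between plants was not measured, so small differences and levels near 1 FPKM carry an error that could not be given.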

Other observations

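Some very high values occurred in a single library. Of 123 genes with at least 50 FPKM in well-watered leaf or root and listed at 0 in the other, 80 had their signal in leaf and 43 in root. Of these, 19 were listed at 0 in all 5 other libraries of the series, 10 with signal in leaf and 9 in root, and 0 of the 19 have a name in the reference. GRMZM2G511229, the highest value of the leaf library among genes past 8-fold at 9092 FPKM, and GRMZM2G578282 and GRMZM2G583696, with 2786 and 2399 FPKM in root, are such genes. AC214039.3_FG005 was listed at 0 in well-watered leaf and had 2756 FPKM in well-watered root, 5001 FPKM in drought leaf and 7339 FPKM in drought root. A value listed at 0 in such a table can be a failed estimate, which was not tested.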
